A study of Mus musculus with 6 samples.

Results

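The windows around the starts of Fgf8, Fgf4, Fgf9 and Fgf17 were examined, chosen by gene symbol. They are 4 of the gene starts in the deposited table, or 1.70% of them. Each window runs from 1000 bp upstream to 1000 bp downstream of a start and holds 100 bins of 20 bp in each of 6 libraries. ATAC-seq, in which the Tn5 transposase cuts and tags open DNA, was run on mouse limb explants collected 1 day after amputation. The mice were wild-type and of the outbred CD-1 stock. There were 3 libraries from explants kept at an air-liquid interface (ALI) and 3 from explants kept in 96-well plates, with no further allele or agent in either group. The labels state that 4 limbs were collected from each culture. They give neither the age of the mice nor which limb was used, and they do not say whether replicates came from separate animals. The spread behind each p-value is thus one between libraries and can be technical. In the trended tests of whole windows it was pooled over windows of like signal, not taken from the libraries of each window alone. Bulk tissue was used, so fewer cells with an open site and a less open site in each cell cannot be told apart.

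Fibroblast growth factors (FGFs) are secreted proteins that signal through receptor tyrosine kinases. In the limb bud the apical ectodermal ridge, a strip of epithelium along the tip, secretes them to the mesenchyme beneath, where they keep cells alive and drive outgrowth. Fgf8 is made along the whole ridge and is its usual marker, whereas Fgf4, Fgf9 and Fgf17 are made in parts of it. Fgf8 and Fgf17 belong to one subfamily of ligands, and Fgf4 and Fgf9 each to another.

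In GRCm39, the build named in the submitters' processing notes, the Fgf8 start is on the minus strand of chromosome 19 at 45731355, with a window from 45730355 to 45732355. Fgf4 is on the plus strand of chromosome 7 at 144401105 (window 144400105 to 144402105). Fgf9 is on the plus strand of chromosome 14 at 58308005 (window 58307005 to 58309005), and Fgf17 on the minus strand of chromosome 14 at 70879709 (window 70878709 to 70880709). No GRCm39 annotation was used here, so exons and introns in the windows are not described. The table's starts were compared with RefSeq gene starts of GRCm38.p6 through the offset shown by other genes of the table on the same chromosome. Against the nearest such gene, the Fgf9 point lay 0.102 kb upstream and the Fgf17 point 0.147 kb downstream of the RefSeq start. The Fgf8 point lay 3.35 kb downstream against Nfkb2, its nearest neighbour, but 0.344 kb against Blnk and 0.408 kb against Mxi1. The Fgf4 point lay 14 kb upstream of the RefSeq start against Gm14372, 440 kb away, and farther against the next neighbours (40.2 and 59.4 kb). Sequence that differs between the builds enters these distances. The row named Fgf4 therefore was not shown to cover the Fgf4 promoter, and its values are given as those of that point. For Fgf8, the offset against Nfkb2 puts the RefSeq start outside the window, and those against Blnk and Mxi1 put it inside. This was not resolved, and the Fgf8 start below means the start in the table.

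The RefSeq promoter table (GRCm38.p6) matched 2 of the 4 genes, Fgf4 and Fgf9; Fgf8 and Fgf17 have no entry. The 250 bases before each start in that set are shown, and by the offsets above neither stretch lies in the measured windows. For Fgf9 the set gives another start, 2015 bp downstream of the RefSeq gene start used above. Its stretch is therefore not that before the gene start. For Fgf4 both starts are the same. The Fgf4 start is 14 kb and this Fgf9 start 2.12 kb downstream of the table's point. The Fgf4 stretch is chr7:144861136-144861385 and the Fgf9 stretch chr14:58072436-58072685, both on the plus strand. Capitals mark matches, on either strand, of the GC box (GGGCGG), the CCAAT box and the hypoxia response core (ACGTG).
Fgf4: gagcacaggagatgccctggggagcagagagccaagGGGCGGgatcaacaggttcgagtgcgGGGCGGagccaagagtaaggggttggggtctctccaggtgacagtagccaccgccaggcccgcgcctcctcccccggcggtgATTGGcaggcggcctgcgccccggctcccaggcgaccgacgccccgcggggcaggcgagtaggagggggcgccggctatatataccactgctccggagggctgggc
Fgf9: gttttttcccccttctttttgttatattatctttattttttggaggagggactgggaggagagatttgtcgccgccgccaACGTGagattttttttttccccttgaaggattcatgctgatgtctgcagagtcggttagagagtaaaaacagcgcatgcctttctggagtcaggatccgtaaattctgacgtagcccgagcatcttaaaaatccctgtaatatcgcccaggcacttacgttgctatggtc
The Fgf4 stretch is 71.2% G+C with 21 CpG sites, and the Fgf9 stretch is 44.8% G+C with 11, against medians of 52.4% and 6 over 32851 promoters. Fgf4 holds 2 GC boxes (a motif in 32.7% of promoters) and 1 CCAAT box on the reverse strand (33.8%). Fgf9 holds 1 ACGTG core (16.6%). The E-box (CANNTG, in 66.2% of promoters), which can overlap that core, occurs 1 time in Fgf4. The other hypoxia core (GCGTG, 28.2%), the TATA box in the form TATAAA (12.4%) and the AP-1 site (TGANTCA, 6.75%) have no match in either stretch. The same holds for the TCF/LEF sites (CTTTGAA, 4.46%, and CTTTGAT, 3.21%), the homeobox core (TAATTA, 4.84%) and the ETS core (CCGGAAG, 6.91%). These matches describe the letters only. The TATA box was searched as TATAAA alone, so the tatatata near the end of the Fgf4 stretch was not counted.

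Values are signal, the authors' depth-normalized coverage, averaged over the 2000 bp window. Over all windows the mean per library ranged from 10.1 to 18.6, highest in ALI replicate 2 and next in 96-well replicate 3 (14.7). The depth of the libraries, taken from the step between low values, ran from 0.77 to 1.29 of their mean. All 4 FGF windows lay in the lower part of the table, whose median signal was 10.6.

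Fgf8 and Fgf9 were the stronger windows of the 4, at like levels. Fgf8 signal was 6.29, 7.88 and 5.32 in ALI replicates 1 to 3 and 7.18, 6.64 and 9.69 in 96-well replicates 1 to 3. The groups overlapped, and the highest value of each came from the library with the highest level over the whole table. Averaged over the 6 libraries it stood above 37.4% of windows, with a coverage of 43.1 to 90.4 reads per base. Fgf9 stood above 36.2% of windows, with 5.98, 8.27 and 5.74 in ALI and 6.05, 6.23 and 8.45 in 96-well libraries. Fgf17 stood above 24.3% of windows, with 2.85, 3.11 and 2.85 in ALI and 3.05, 3.27 and 3.88 in 96-well libraries, so that 1 ALI value exceeded the lowest 96-well value. The Fgf4 point was lowest, above 18.3% of windows, with 2.08, 1.82 and 1.98 in ALI and 1.91, 2.08 and 1.82 in 96-well libraries, at 13.7 to 20.9 reads per base. Fgf8 and Fgf9 were not separated by level: their ratio within a library ran from 0.927 to 1.19. Both stood above Fgf17 in each library, Fgf8 by 1.87- to 2.53-fold and Fgf9 by 1.90- to 2.66-fold, and Fgf17 stood above Fgf4 in each library.

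The 4 windows differed in where the open chromatin lay. In 67.7% of windows the highest bin of the mean profile was within 200 bp of the start. Of the 4 FGF windows, Fgf8 alone was among them.

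**Figure D1:**
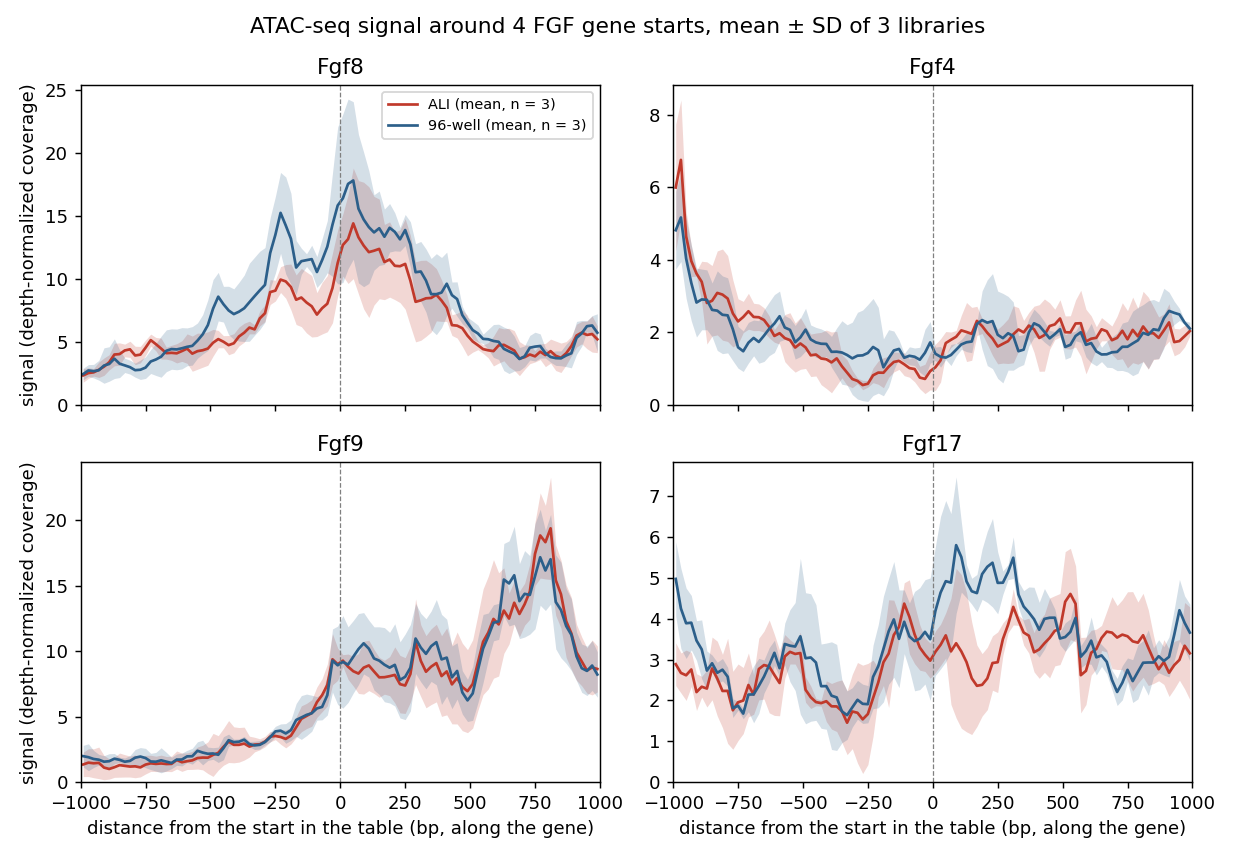
Signal in 20 bp bins against distance from the start in the table (bp, along the direction of the gene) for each FGF gene. Lines are means of 3 libraries per culture and bands are 1 SD. Fgf8 has maxima at −230 and 50 bp, Fgf9 rises to 810 bp, Fgf4 is highest at the upstream edge, and Fgf17 has no single peak.

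Fgf8 had a broad domain over its start, with 720 bp of the mean profile at or above 0.5 of its maximum against a table median of 420 bp. It held 2 maxima. At 50 bp downstream the signal was 13.9, 19.1 and 10.3 in ALI replicates 1 to 3 and 14.3, 14.1 and 25.0 in 96-well replicates 1 to 3, with overlapping groups. At 230 bp upstream it was 10.4, 10.7 and 8.79 in ALI and 13.4, 13.4 and 18.95 in 96-well libraries. At this upstream maximum every ALI library was below every 96-well library on the deposited scale, a bin that was chosen after its values were seen and is given with no test. The 200 bp after the start held 19.1% of the window's signal, and the highest single bin lay between 10 and 50 bp downstream in each of the 6 libraries. Pearson's r between libraries over the 100 bins ranged from 0.86 to 0.94 over 15 library pairs. Its median, 0.91, was above that of 30.3% of windows, and the median over all windows was 0.98.

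Fgf9 had a step at its start and a peak far inside the window. Signal was 1.31 at 890 bp upstream, 9.68 at 90 bp downstream and 18.2 at 810 bp downstream (means of 6 libraries). The highest bin was at 770 or 810 bp downstream in every library. Its value was 16.9, 23.9 and 18.9 in ALI and 15.4, 15.3 and 21.4 in 96-well libraries, with overlapping groups. Downstream signal exceeded upstream signal by 2.64- to 4.27-fold, and the ratio of the averaged profile, 3.63, was above that of 90.6% of windows. The segment from 600 to 800 bp held 21.96% of the signal. Profiles of different libraries correlated at r = 0.91 to 0.98, with a median above that of 38% of windows.

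The Fgf17 window held low signal with no repeatable summit. The highest bin fell at 530, 550 and −170 bp in ALI replicates 1 to 3 and at 90, 290 and 90 bp in 96-well replicates 1 to 3. The mean profile stayed at or above 0.5 of its maximum over 1640 bp, and its maximum was 1.54 times the window mean, a ratio above that of 5.96% of windows. Profiles of different libraries correlated at r = 0.056 to 0.69 over the 100 bins, at a coverage of 19.5 to 36 reads per base.

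Around the Fgf4 point signal was lowest in the 400 bp before it, where the segments from −400 to −200 bp and from −200 bp to the point held 5.82% and 6.07% of the window's signal. The lowest bin of the mean profile, 270 bp upstream, held a signal of 0.96, and the highest, at 970 bp upstream, held 5.96. The highest bin was the first or second of the window in each library, so the window edge cuts whatever lies beyond it. Signal in the central 400 bp was 0.44 to 0.64 of that in the outer 200 bp on each side, and the ratio of the averaged profile was above that of 4.26% of windows. In ALI the edge bin at −970 bp read 4.93, 8.15 and 7.17, and in 96-well libraries 4.31, 6.56 and 4.63, with overlap. Between libraries the Fgf4 profiles correlated at r = 0.18 to 0.81, with a median above that of 19.2% of windows.

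The comparison of cultures asks whether these windows were more or less open at the air-liquid interface than in 96-well plates. On the deposited scale none of the 4 windows differed by the test. Changes are ALI minus 96-well in log2(signal + 1.06), with a pseudocount of 0.1 of the median window signal, which understates changes at low signal such as that of Fgf4 and Fgf17. Fgf8 went from 7.84 ± 1.62 (SD, n = 3) in 96-well to 6.50 ± 1.29 in ALI libraries, or −0.23 ± 0.23 (SE) by limma, with a Benjamini-Hochberg adjusted p of 0.81. Leaving out 1 library moved it from −0.091 (without 96-well replicate 3) to −0.36 (without ALI replicate 2). Fgf17 went from 3.40 ± 0.43 to 2.94 ± 0.15 (−0.15 ± 0.16, limma adjusted p = 0.81), and −0.079 without 96-well replicate 3. Fgf9 stood at 6.91 ± 1.34 and 6.66 ± 1.40 (−0.05 ± 0.23, limma adjusted p = 0.96), and Fgf4 at 1.93 ± 0.14 and 1.96 ± 0.13 (0.01 ± 0.13, limma adjusted p = 0.98). Limma called 0 of the 4, as it did of all windows (0%), where 7 had an unadjusted p under 0.05. All 4 windows had overlapping groups, against 5.96% of windows without overlap.

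Library level moved with these values: the median change over all windows was 0.14 on the deposited scale, and the shift that centring removed was 0.38 (log2) in ALI replicate 2 and −0.23 in 96-well replicate 1. After each library was centred on its median deviation from the window means, the median change over all windows was −0.03, and the Fgf8 window was lower in ALI. Centred Fgf8 values were 2.97, 2.78 and 2.69 in ALI replicates 1 to 3 and 3.28, 3.14 and 3.23 in 96-well replicates 1 to 3. The groups no longer overlapped. The centred Fgf8 change was −0.40 ± 0.10 (SE; limma adjusted p = 0.0020), lower than all but 3.40% of windows. With limma fitted without a trend of variance on signal the call ended (limma adjusted p = 0.064), and with quantile normalization in place of centring the change was −0.25 (limma adjusted p = 0.084). In the trended fit each variance came wholly from windows of like signal.

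Centred Fgf9 values were tight within a culture, at 2.91, 2.84 and 2.78 in ALI and 3.06, 3.06 and 3.05 in 96-well libraries. The groups did not overlap, but the change of −0.21 ± 0.10 missed the threshold (limma adjusted p = 0.11). Centred Fgf17 values were 2.06, 1.68 and 1.99 in ALI and 2.27, 2.31 and 2.11 in 96-well libraries, again without overlap and short of the threshold (−0.32 ± 0.15, limma adjusted p = 0.10). ALI replicate 2 was the highest ALI library for Fgf17 as deposited (3.11) and the lowest after its shift of 0.38 was subtracted. The same shift was subtracted at all signal levels. Without that library the centred Fgf17 change was −0.19 (limma adjusted p = 0.45). Fgf4 overlapped, with 1.74, 1.14 and 1.62 in ALI and 1.80, 1.84 and 1.33 in 96-well libraries (−0.16 ± 0.20, limma adjusted p = 0.64). Without ALI replicate 2 the centred Fgf4 change was 0.039. Thus 1 of the 4 windows was called lower, against 10.2% of all windows, and 3 of the 4 had every ALI library below every 96-well library, against 17.4%. The median change of the 4 was not tested, since the genes were chosen with such values known.

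**Figure D2:**
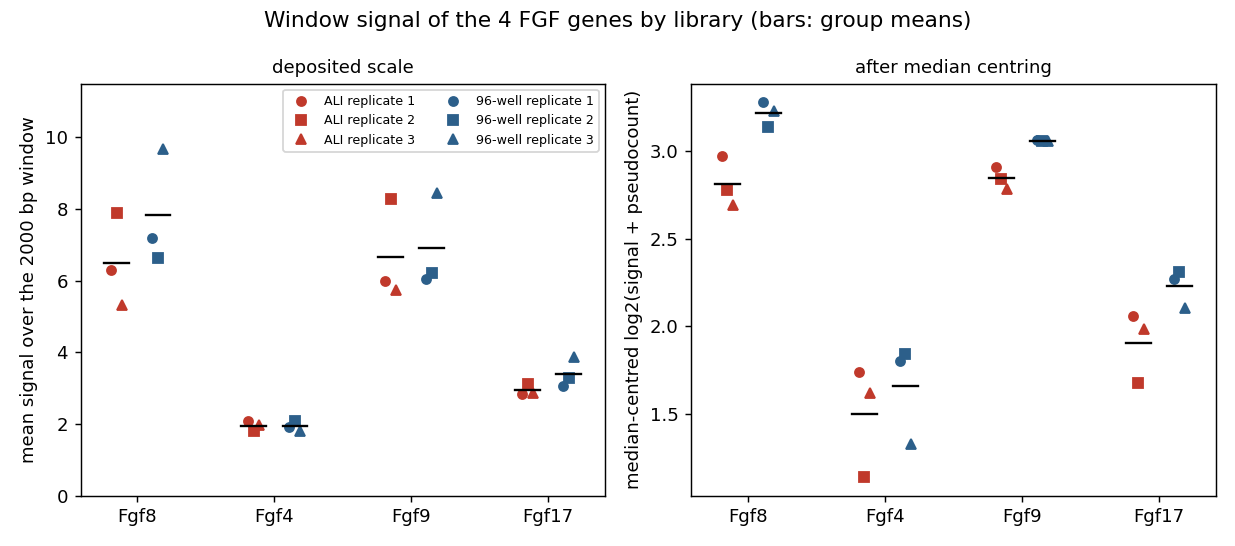
Mean signal over the 2000 bp window (left) and median-centred log2(signal + pseudocount) (right) for each FGF gene, with 1 point per library and a bar at each group mean of 3. On the left all 4 genes overlap between cultures; on the right the ALI points of Fgf8, Fgf9 and Fgf17 lie below the 96-well points.

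The shape of the Fgf8 domain was compared by a ratio within a library. The groups did not overlap, but the test did not pass. The scale of a library cancels in the plain ratio. It cancels only in part in the tested change, where the pseudocount was added to both signals. Signal in the central 400 bp over that in the outer 200 bp on each side was 2.48, 2.86 and 2.32 in ALI replicates 1 to 3 and 3.02, 3.42 and 3.93 in 96-well replicates 1 to 3. The lowest 96-well ratio exceeded the highest ALI ratio. The change of the log2 ratio was −0.39 ± 0.20 (SE), which did not pass (limma adjusted p = 0.22). With a pseudocount of 0.01 of the median it was −0.43 (limma adjusted p = 0.22). The median change over all windows, with the main pseudocount, was 0.24 in the other direction. When the log2 ratios of each library were median-centred, the Fgf8 change was −0.65 (limma adjusted p = 0.047), just past the threshold, and 1.7% of windows were called lower in that fit. Only 3.40% of windows had a lower change than Fgf8. Without centring, limma called 0.426% of windows lower in this ratio, none of them an FGF window, and 3.83% had every ALI library below every 96-well library. The other 3 genes overlapped: the mean ratio in ALI and 96-well libraries was 0.471 and 0.548 for Fgf4, 1.14 and 1.22 for Fgf9, and 1.18 and 1.25 for Fgf17 (limma adjusted p of 0.64, 0.80 and 0.80).

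**Figure D3:**
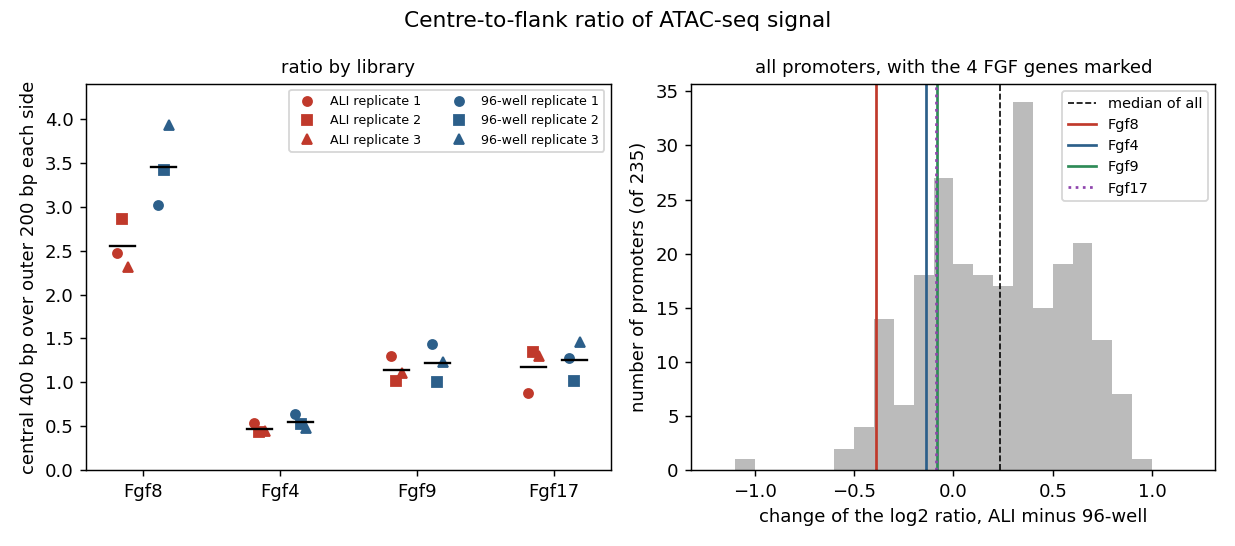
Left, ratio of signal in the central 400 bp to that in the outer 200 bp on each side for each FGF gene, with 1 point per library and a bar at each group mean. Right, change of the log2 ratio with the pseudocount added (ALI minus 96-well) over all windows, with lines at the 4 genes. Fgf8 stands at −0.39 and the median of all windows (dashed) at 0.24.

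Divided into 200 bp segments, Fgf8 had its lowest changes in the stretch before the start, though no segment passed. After centring over all 2350 segments, the changes were −0.45 from −600 to −400 bp, −0.46 from −400 to −200 bp and −0.53 ± 0.19 (SE; limma adjusted p = 0.090) in the 200 bp before the start. They were 0.08 and 0.16 in the 2 outermost upstream segments. The 3 segments from −600 bp to the start, and the one from 400 to 600 bp, had every ALI library below every 96-well library. In Fgf17 the lowest segment was the 200 bp after the start (−0.62 ± 0.21, limma adjusted p = 0.082), followed by the next 200 bp (−0.43). Fgf9 segments ranged from −0.38 to 0.04 and Fgf4 segments from −0.37 to 0.18, with no segment of either free of overlap. In all, 7 of the 40 FGF segments had ALI below without overlap, against 9.4% of all segments, and 0 of 40 were called lower, against 1.28%. Segments of one gene share their libraries and neighbours and are not independent. On the deposited scale 4 of 40 had ALI below, against 5.74%, and 0 of 40 were called lower, against 0.213%. On that scale 1 segment, the 200 bp after the Fgf4 point, had every ALI library above every 96-well library (0.08, limma adjusted p = 0.96). The share of all segments with ALI above was not counted, so this segment has no background beside it.

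**Figure D4:**
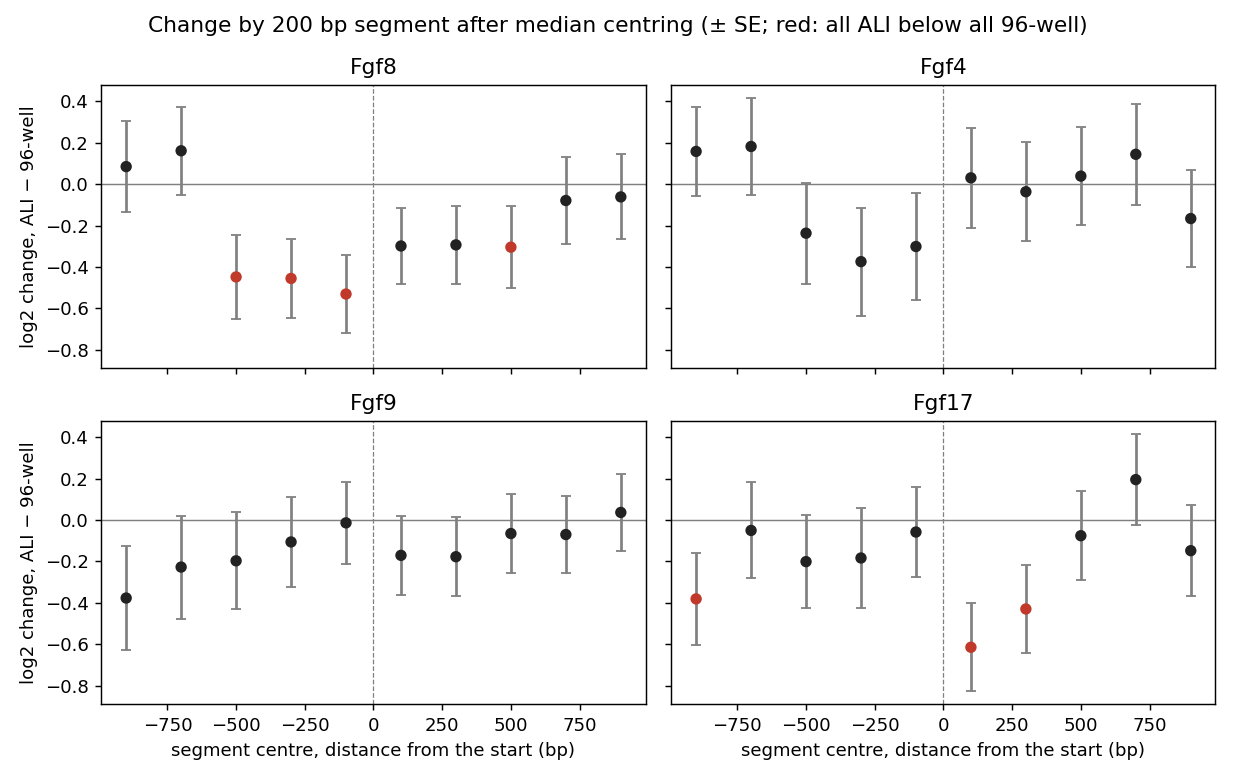
Change in log2(signal + pseudocount), ALI minus 96-well, of 10 segments of 200 bp per FGF gene after median centring, against distance from the start (bp). Bars are SE of the limma fit, and red points mark segments in which every ALI library was below every 96-well library: 4 in Fgf8, 3 in Fgf17 and 0 in Fgf9 and Fgf4.

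The balance between the upstream and downstream sides showed no difference in any of the 4 genes. The change of the log2 upstream-to-downstream ratio was −0.09 ± 0.11 (SE) for Fgf8, −0.04 ± 0.19 for Fgf4, −0.04 ± 0.18 for Fgf9 and 0.06 ± 0.16 for Fgf17, with limma adjusted p of 0.73 to 0.91. None of the 4 was called, against 4.26% of windows, and all 4 overlapped, against 27.2% without overlap.

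Plain ratios between 2 of the genes within a library also cancel its scale, and 6 pairs were compared. The ratios printed are plain, whereas the tests used ratios with the pseudocount added, in which the scale cancels only in part. Fgf8 over Fgf9 was 1.05, 0.952 and 0.927 in ALI replicates 1 to 3 and 1.19, 1.07 and 1.15 in 96-well replicates 1 to 3. All ALI ratios lay below all 96-well ratios, with means of 0.977 ± 0.066 (SD, n = 3) and 1.13 ± 0.061. The exact two-sided permutation p was 0.1, the smallest that 3 libraries against 3 allow, and 0.6 after Benjamini-Hochberg adjustment over the 6 pairs. The other 5 pairs overlapped, with exact permutation p of 0.3 to 0.6. Fgf8 over Fgf17, for instance, was 2.20 ± 0.33 in ALI and 2.30 ± 0.24 in 96-well libraries.

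Likeness to other windows was measured by Pearson's r of centred values over the 6 libraries, which share their libraries and the group split, and is a description. Nearest to Fgf8 were Fam43a (r = 0.99), Fgf9 (0.98) and Gm43573 (0.95). Nearest to Fgf9 were Fgf8 (0.98), Fam43a (0.97) and Nelfcd (0.95). The Fgf4 point was nearest to Atf7ip (0.99), Gm39388 (0.99) and Cyp2b13 (0.98), and Fgf17 to 9630028H03Rik (0.98), Slc4a10 (0.97) and Gm20471 (0.97). Log2 values at the Fgf4 point ran from 1.52 to 1.65 before centring and from 1.14 to 1.84 after it. Its r values therefore largely follow the shift subtracted from each library, which is the same for all windows. For Fgf17 the values ran from 1.96 to 2.30 before and from 1.68 to 2.31 after centring. By the shape of the mean profile over 100 bins, Fgf8 was nearest to Capn5 (0.93) and Arhgef40 (0.93), and Fgf9 to Sp8 (0.89), a ridge transcription factor gene, and Gm19531 (0.89). Fgf17 was nearest to Bmp4 (0.73) and Slc35e2 (0.72), and Fgf4 to Gm10804 (0.81) and Gm14372 (0.63).

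Other genes of the FGF pathway could not be set beside the ligands: of 22 listed receptors, mesenchymal ligands, targets and loop genes (Fgfr1, Fgf10, Spry4, Etv4 and Shh among them), 0 are in the table. Of 21 further genes expressed in or around the ridge, 18 are in the table. After centring, limma called 6 of these lower in ALI (Bmp2, Bmp4, Rspo2, Dkk1, Dlx2 and Cd44) and 0 higher, against 10.2% of all windows called lower. The median change of the 18 was −0.21 against −0.03 for all windows. Without the variance trend limma called 0 windows of the table after centring, so none of these 6. On the deposited scale it called 0 of 18, with a median of −0.04 against 0.14.

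Of 5 epithelial marker genes fixed for comparison, Cdh1 and Trp63 are in the table, and neither was at 0 in any library. Trp63 was low, with a mean signal of 1.81 over the libraries against 1.95 at the Fgf4 point, so most of the sum below is Cdh1. Their summed window signal was 6.76 to 8.37 in ALI and 6.86 to 10.4 in 96-well libraries. After centring, the changes were −0.25 for Cdh1 (limma adjusted p = 0.080) and −0.40 ± 0.21 (SE) for Trp63 (limma adjusted p = 0.14), beside −0.40 ± 0.10 for Fgf8. Their part in the FGF values was not tested. Of 8 limb mesenchyme markers only Msx1 is in the table (centred change −0.19, limma adjusted p = 0.12), and the listed muscle, endothelial, blood and cartilage markers have no row.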

How the data were processed

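Values are signal, that is coverage normalized to sequencing depth by the authors, per the file headers; deepTools averaged it in bins of 20 bp and skipped rows of zeros. The tools named per the submitters' processing notes are deepTools 3.5.1, Picard, Bowtie2 2.5.1, Trim Galore 0.6.10 and SAMtools 1.16.1. The scaling formula, duplicate filter, Tn5 shift and choice of the 235 genes are not given in the sources used here. Low bin values were whole multiples of 1 step per library (within 0.1 of a step). That step was taken as 1 read over 1 base of a 20 bp bin, and 20 steps as the signal of 1 read per base. Total reads are unknown, so no count test was run.

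Window, segment and ratio measures were tested over all 235 windows, or all their segments, with limma 3.58.1 in R 4.3.3 (trended eBayes, Benjamini-Hochberg threshold 0.05) and the code was tested on simulated data. Single ratios were tested by exact permutation over 10 splits. Named genes were the 4 FGF genes, the 3 windows nearest to each over libraries and the 2 nearest by profile. The genes and lists were chosen with earlier results of these data known. Alternatives were other scalings, pseudocounts, a low-signal filter, narrower regions, a replicate block, no trend and each library left out.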

Additional observations from a re-analysis of the deposited data

How the results depend on the processing

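The scaling decided what was called over whole windows. Limma called 0 windows on the deposited scale, 51 after median centring (27 higher and 24 lower in ALI), 38 after quantile normalization, 61 after cyclic loess and 73 with equal flank signal. The Fgf8 change passed with median centring (−0.40), cyclic loess (−0.25) and equal flank signal (−0.33), and missed with quantile normalization; leaving out libraries on the deposited scale it ran from −0.36 to −0.091, and that of Fgf17 from −0.21 to −0.079. The Fgf4 change, 0.01 as deposited, turned to −0.16 with median centring, −0.058 with equal flank signal and −0.068 over the central 400 bp. With each library left out in turn, it ran from −0.018 (without 96-well replicate 3; −0.017 without ALI replicate 1) to 0.047, and that of Fgf9 from −0.19 to 0.087, turning without ALI replicate 1 or 3 or 96-well replicate 3. The cause of these differences was not tested.

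After centring, the Fgf8 change of −0.40 kept its call in 10 of 11 alternatives and lost it without the variance trend (−0.40), where limma called 0 windows. Those 10 all used the trended fit, so they cannot show whether the call depends on how the variance was taken. Fgf17 passed over the central 400 bp (−0.54, limma adjusted p = 0.044) and without ALI replicate 1 (−0.40, limma adjusted p = 0.049). Over the central 400 bp limma called 60 windows, 27 of them lower in ALI. Without ALI replicate 1 it called 50, 24 of them lower. The Fgf17 change ran from −0.40 to −0.19 with each library left out in turn. Fgf4 ran from −0.31 to 0.039, turning without ALI replicate 2. A low-signal filter, tried with centring after the data were seen, removed Fgf4 and Fgf17 and brought Fgf9 past the threshold (−0.27, limma adjusted p = 0.025). Among the fewer windows kept, that fit gave 89 calls, 45 higher and 44 lower in ALI. The Fgf9 call was thus 1 of the 44 lower ones. Leaving out libraries gave 22 (without 96-well replicate 1) to 58 calls, with 25 without 96-well replicate 2.

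The centre-to-flank change of Fgf8 passed with median centring (−0.65). With the central 200 bp over the outer 100 bp those of Fgf9 and Fgf17 became 0.0019 and 0.13; leaving out libraries they ran from −0.20 to 0.018 and from −0.20 to 0.058. Its calls over all windows, 3 as deposited, ran from 0 to 22 (without ALI replicate 1). Upstream-to-downstream changes ran, leaving out libraries, from −0.19 to 0.19 for Fgf4, −0.18 to 0.14 for Fgf9 and −0.12 to 0.17 for Fgf17, and its 10 calls fell to 0 with median centring. Fgf8 over Fgf17 ran from −0.18 to 0.021, Fgf4 over Fgf9 from −0.10 to 0.24 (−0.0042 over the central 400 bp) and Fgf9 over Fgf17 from −0.0057 to 0.18. FGF segments called were 0 in all 10 alternatives; over all windows there were 5 segment calls as deposited and 60 after centring.

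The labels do not say whether same-numbered libraries were paired. Deviations of same-numbered libraries correlated at r = 0.67, −0.61 and −0.60. The highest r, 0.81, was between ALI replicate 2 and 96-well replicate 3. These libraries also had the highest and next highest level over all windows, so such correlations cannot decide the pairing. With the replicate block, limma called 0 windows on the deposited scale (Fgf8 −0.23) and 39 after centring, Fgf8 among them (adjusted p = 0.0040); centre-to-flank calls went to 0 and upstream-to-downstream calls to 1. Coverage was lowest for Fgf4 and Fgf17, at 13.7 to 36 reads per base.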
